A study of Mus musculus with 12 samples.

Results

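The expression of Nfe2, its CNC relatives Nfe2l1 and Nfe2l2, the Maf genes Maf, Mafg and Mafk, and Bach1 and Bach2 was examined in pre-megakaryocyte/erythroid progenitors (PreMegEs) sorted from adult mouse bone marrow. The 8 genes were taken by symbol from a table of 41128 genes, and each symbol matched 1 gene. RNA-Seq had been carried out on 12 libraries in 4 groups of 3, each library from the pooled cells of 3 C57BL/6 mice aged 12 to 16 weeks. WT PreMegEs came from wild type mice and were not separated further. P2- and P2+ PreMegEs both came from Runx1 P1-GFP::P2-hCD4/+ mice, which carry 1 reporter allele of Runx1. In that allele GFP reports the distal promoter P1 and human CD4 reports the proximal promoter P2, and the fractions were separated by hCD4 on the cell surface. KO PreMegEs came from RUNX1C knockout mice, in which the isoform made from P1 is lost and P2 remains, and they were not separated by P2. The paper reports RNA-Seq of WT, P2- and P2+ only, so the pooling and library preparation of KO are taken from its general methods. Whether KO was sequenced with the others is not given. In every comparison of KO a batch therefore cannot be told apart from the group. Groups of different genotype therefore differ in their Runx1 alleles, and only P2+ and P2- share a genotype. Because each library pools mice and the sort holds a mixture, fewer cells of a type and less RNA per cell cannot be told apart in any value below.

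CNC proteins are basic leucine zipper transcription factors that do not bind DNA alone. They pair with a small Maf protein (MafF, MafG or MafK) and bind antioxidant response elements and the related NF-E2 sites. Nfe2 encodes the large subunit of NF-E2, which is required for platelet formation and was found as an activator of globin and heme synthesis genes in erythroid cells. Nfe2l2 encodes Nrf2, which Keap1 holds for degradation until oxidants release it, and Nfe2l1 encodes Nrf1, which is cleaved and freed from the endoplasmic reticulum to drive proteasome genes. Bach1 and Bach2 pair with the same small Mafs and repress such sites, Bach1 under the control of heme and Bach2 mainly in lymphocytes. Maf encodes c-Maf, a large Maf that carries its own activation domain.

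The 8 genes lie on 7 chromosomes (GRCm38, GENCODE vM21). The CNC genes are Nfe2 at chr15:103248212-103258403, Nfe2l1 at chr11:96817414-96829968 and Nfe2l2 at chr2:75675513-75704641, all on the minus strand. The Maf genes are Maf at chr8:115682942-115707794 and Mafg at chr11:120625117-120633600 on the minus strand and Mafk at chr5:139791513-139802653 on the plus strand. Bach1 at chr16:87698945-87733346 and Bach2 at chr4:32238804-32586108 are on the plus strand.

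The promoter of Nfe2l2, the gene that differed between the groups, is shown with those of Mafk and Mafg because each of the 3 holds the core letters of an antioxidant response element (TGACNNNGC). The sequences are those of RefSeq on build GRCm38.p6, 5′ to 3′ on the strand of the gene, from 250 bases before a RefSeq start site to 50 bases after it, and these start sites are not the GENCODE gene starts given above. They cover chr2:75704614-75704913 (minus strand) for Nfe2l2, chr5:139791286-139791585 (plus strand) for Mafk and chr11:120633498-120633797 (minus strand) for Mafg. Capitals mark the match, which in Mafk and Mafg lies on the opposite strand and so reads as its reverse complement.
Nfe2l2: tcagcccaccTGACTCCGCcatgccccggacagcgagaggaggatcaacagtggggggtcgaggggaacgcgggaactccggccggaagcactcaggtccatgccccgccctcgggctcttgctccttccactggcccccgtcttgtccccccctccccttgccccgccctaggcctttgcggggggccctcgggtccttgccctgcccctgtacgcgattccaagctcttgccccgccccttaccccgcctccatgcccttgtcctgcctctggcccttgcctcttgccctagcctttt
Mafk: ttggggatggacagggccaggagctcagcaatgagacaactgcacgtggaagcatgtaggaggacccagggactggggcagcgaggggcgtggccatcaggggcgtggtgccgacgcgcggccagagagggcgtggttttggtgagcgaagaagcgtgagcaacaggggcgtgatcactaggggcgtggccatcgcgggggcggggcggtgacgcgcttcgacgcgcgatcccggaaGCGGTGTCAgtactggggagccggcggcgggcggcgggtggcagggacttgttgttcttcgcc
Mafg: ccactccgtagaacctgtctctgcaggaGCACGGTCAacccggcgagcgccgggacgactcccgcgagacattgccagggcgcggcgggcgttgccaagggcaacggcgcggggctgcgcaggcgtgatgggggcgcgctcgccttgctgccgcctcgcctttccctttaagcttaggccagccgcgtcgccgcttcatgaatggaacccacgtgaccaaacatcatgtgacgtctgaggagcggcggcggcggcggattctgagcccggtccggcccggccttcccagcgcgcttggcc
The match began 240 bases before the RefSeq start site in Nfe2l2, 13 bases before it in Mafk and 222 bases before it in Mafg. Sequences were at hand for 6 of the 8 genes, in 10 windows, and those of Nfe2 and Maf were not analysed here. On either strand the letters were found in 12.4% of 32851 mouse promoter windows of this length. Searched in the same way, the RUNX letters TGTGGT were found in 1 of the windows of Nfe2l1, 235 bases before a RefSeq start site that lies inside the gene as placed above, and in 16.8% of all windows. The AP-1 letters TGANTCA, in 7.81% of all windows, and the GATA letters AGATAA, in 11.2%, were in none of the 10. TGANTCA and TGACNNNGC can cover the same bases. A match of letters is a description and was not tested as a site.

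Library totals were between 10726098 and 14445026 counts, and a count of 0 allows at most 0.288 CPM (counts scaled to library size by TMM) in any library, which covers counting error only. The 8 erythroid markers summed to between 1989 and 2465 CPM in P2-, between 1957 and 2187 in KO, between 1217 and 1364 in WT and between 208 and 322 in P2+. The 10 megakaryocyte markers ran the other way, at between 251 and 356 CPM in P2-, 621 and 745 in KO, 1140 and 1291 in WT and 1858 and 2583 in P2+. Kit, which the sort requires, was between 732 and 1156 CPM in all libraries. T and NK markers summed to at most 3.10 CPM, with Cd3g and Cd8a at 0 in all libraries, and macrophage markers to at most 9.51 CPM. Markers of several other cells were higher in P2+ than in P2-. The 8 neutrophil and monocyte markers summed to between 28.4 and 43.4 CPM in P2-, 45.1 and 84.9 in KO, 92.1 and 221 in WT and 128 and 303 in P2+. The 6 mast cell and basophil markers were at between 24.5 and 28.3 CPM in P2- and 84.3 and 136.9 in P2+, and the 6 stem cell markers at between 268 and 295 in P2- and 850.0 and 945 in P2+. Total Runx1 was between 613 and 659 CPM in P2+, 202 and 217 in P2-, 357 and 387 in WT and 341 and 381 in KO, and because both promoters are counted together it does not check the loss of RUNX1C. The libraries numbered 2 of P2- and of P2+ stood apart from the others. Their 14 AP-1 and immediate early genes summed to 13100 and 9075 CPM, against between 229 and 1338 in the other 10 libraries.

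Nfe2l2 was high in P2- and KO, intermediate in WT and low in P2+. Its level was 390, 300.0 and 371 CPM in the P2- libraries and 343, 349 and 367 CPM in the KO libraries. It was 235, 258 and 253 CPM in WT, and 146, 123 and 149 CPM in P2+. No library of P2+ reached one of WT, and no library of WT reached one of P2- or KO, whereas P2- and KO overlapped. Set on a scale from the mean of P2- (0%) to that of P2+ (100%), the WT libraries lay at between 44.6% and 55.5% and the KO libraries at between -6.32% and 5.0%.

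**Figure D1:**
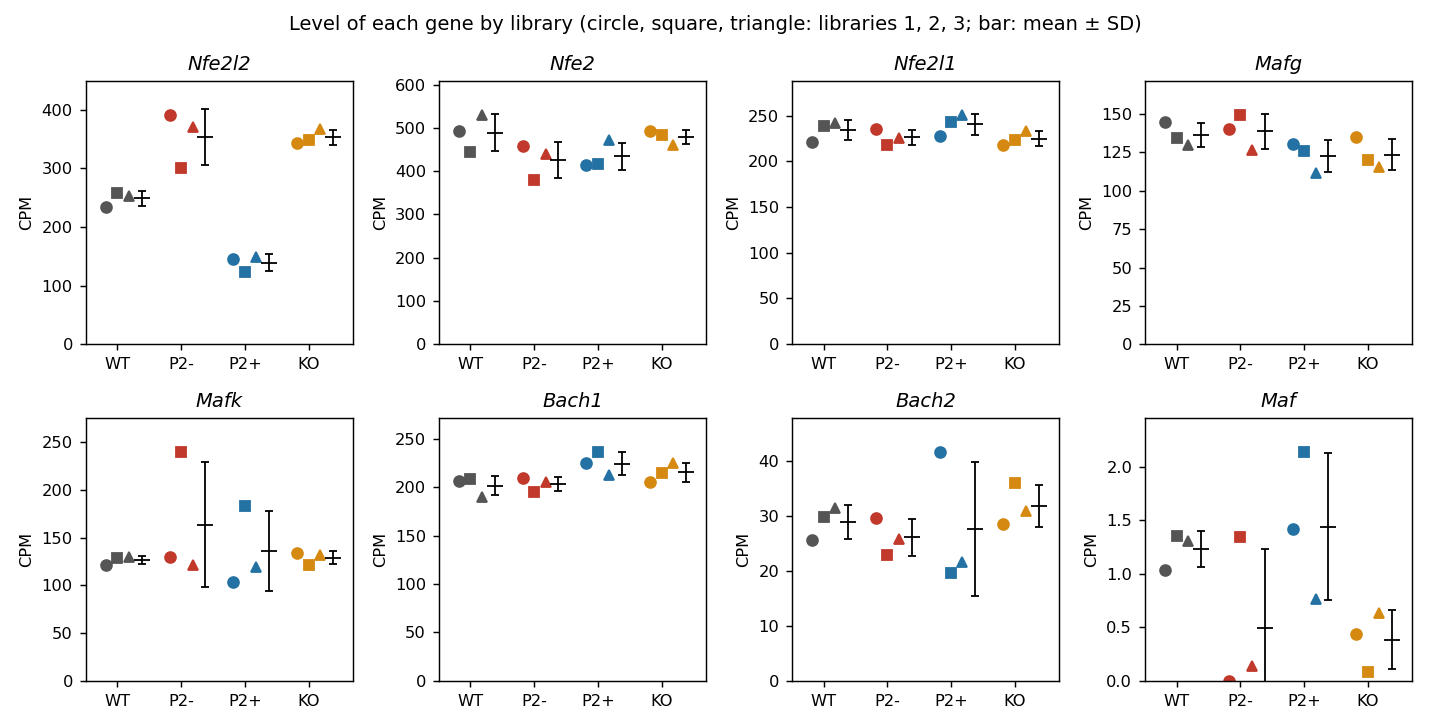
CPM (TMM-scaled, linear axes from 0) of the 8 genes in the 4 groups, with libraries 1, 2 and 3 as circle, square and triangle and the mean ± SD (n = 3) as a black bar. Nfe2l2 falls in 3 levels, with P2- and KO above WT and WT above P2+, and the libraries numbered 2 of P2- and P2+ are high for Mafk.

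Nfe2l2 was 2.52-fold lower in P2+ than in P2- PreMegEs (log2 fold change -1.33, SE 0.12, 95% interval -1.60 to -1.07, edgeR quasi-likelihood test, adjusted p = 4.80e-05). Within the same-numbered pairs of libraries the difference of log2 CPM was -1.42, -1.29 and -1.32. It was also 1.78-fold lower in P2+ than in WT (log2 fold change -0.83, SE 0.09, adjusted p = 2.12e-04) and 1.42-fold higher in P2- than in WT (0.51, SE 0.10, adjusted p = 0.00789). In KO it was 1.41-fold higher than in WT (0.50, SE 0.06, 95% interval 0.37 to 0.63, adjusted p = 2.07e-05) and 2.52-fold higher than in P2+ (1.33, SE 0.08, adjusted p = 1.19e-06). Between KO and P2- no difference was found, with a log2 fold change of -0.01 and a 95% interval of -0.21 to 0.20 (adjusted p = 0.981). These comparisons share libraries and are not independent of each other. The erythroid marker sum given above has the same order of the 4 groups as Nfe2l2, apart from the overlap of P2- and KO, and the megakaryocyte sum the reverse order. The neutrophil and monocyte, mast cell and basophil, and stem cell sums were also higher in P2+ than in P2-, without overlap, and the part of any of these cells in the result was not tested.

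Only Nfe2l2 passed the threshold among the 8 genes in P2+ versus P2-, where 37.1% of the 12836 genes tested were called at an adjusted p under 0.05 (20.1% higher and 17.0% lower in P2+). It stood at place 363 of these genes by p. It was also the only 1 of the 8 both called and changed by at least 2-fold, against 12.7% of all genes tested. Maf had a larger fold change, at 3.16-fold higher in P2+, but was not called. Of the 8 it was again the only call in P2+ versus WT (background 16.5%), in P2- versus WT (background 16.5%) and in KO versus WT (background 14.9%, with 6.18% higher and 8.76% lower). Maf was under the filter in both remaining comparisons. Of the 7 genes left there, none was called in KO versus P2- (background 1.61%) and Nfe2l2 alone in KO versus P2+ (background 37.1%). Leaving Nfe2l2 and Maf aside, the 36 tests of the other 6 genes gave log2 fold changes between -0.35 and 0.37, with a smallest adjusted p of 0.124 and none at an unadjusted p under 0.05. These values came without regard to the numbers of the libraries, and the pairing of P2+ and P2- is taken up with the small Maf genes below.

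**Figure D2:**
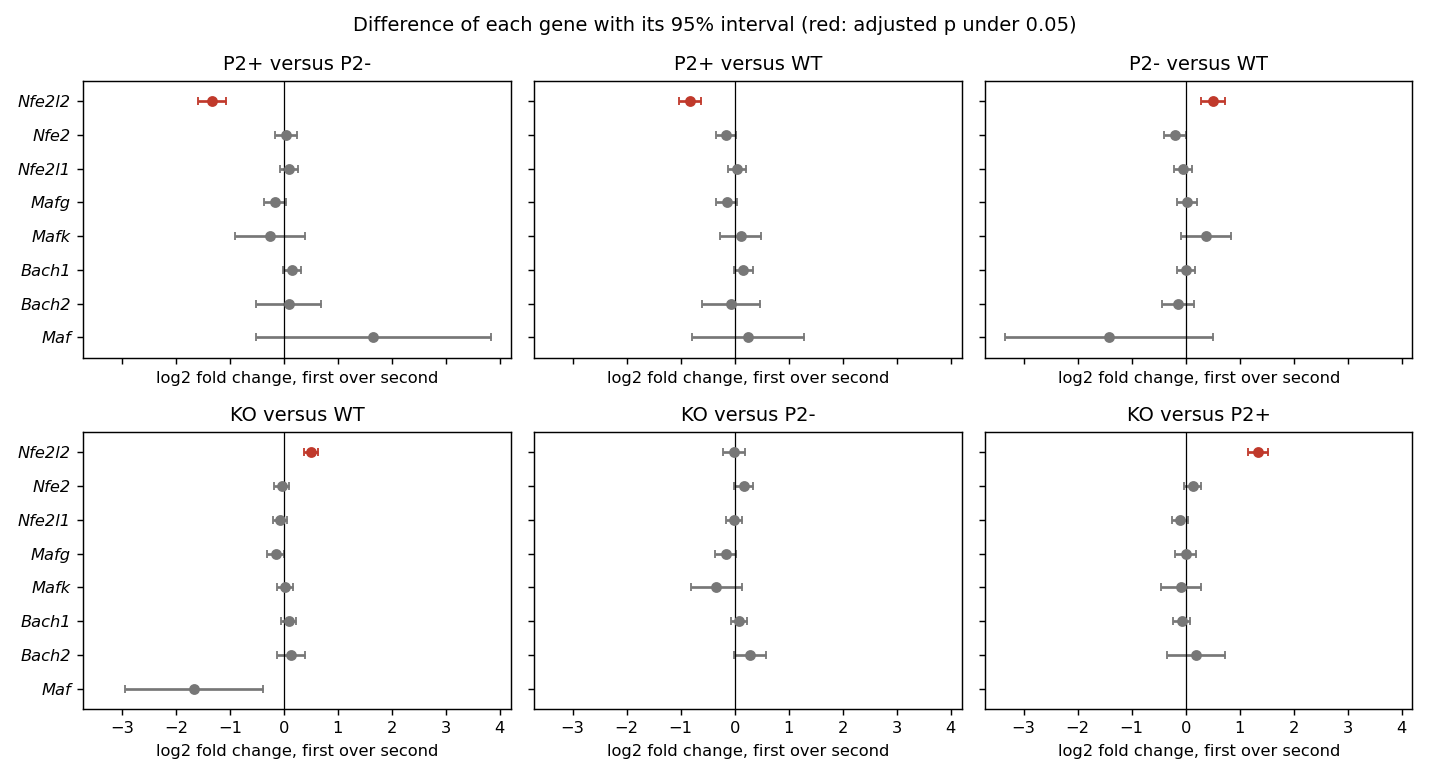
Log2 fold change of each gene (horizontal axis, first group over second) with its 95% interval in the 6 comparisons of 3 against 3 libraries, in red where the adjusted p was under 0.05. Nfe2l2 is the only red gene, in every comparison but KO versus P2-, where it lies at -0.01, and Maf has the widest intervals.

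Nfe2, the large subunit of NF-E2, was the most abundant of the 8 genes per length in all 4 groups. It was 493, 445 and 529 CPM in WT, 459, 380 and 440 CPM in P2-, 415, 416 and 471 CPM in P2+ and 493, 483 and 460 CPM in KO. Only KO and P2- did not overlap, by 460 against 459 CPM. The log2 fold change was 0.04 in P2+ versus P2- (SE 0.09, 95% interval -0.17 to 0.25, adjusted p = 0.773) and -0.04 in KO versus WT (SE 0.07, 95% interval -0.18 to 0.10, adjusted p = 0.755). The widest difference between groups was -0.20 in P2- versus WT (SE 0.09, adjusted p = 0.184). Nfe2 had a coefficient of variation of 8.96% over the 12 libraries, against 34.8% for Nfe2l2.

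Nfe2l1, the Nrf1 gene, was the steadiest of the 8, with a coefficient of variation of 4.54% over the 12 libraries. It lay between 222 and 242 CPM in WT, 218 and 235 CPM in P2-, 228 and 250 CPM in P2+ and 218 and 233 CPM in KO. All 4 groups overlapped. Its difference was 0.10 on the log2 scale in P2+ versus P2- (95% interval -0.06 to 0.26, adjusted p = 0.315) and -0.07 in KO versus WT (95% interval -0.20 to 0.07, adjusted p = 0.556).

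In P2- and P2+ Mafk differed more by the number of the library than by the group. It was 130, 240 and 122 CPM in P2- and 104, 184 and 120 CPM in P2+, so that in both the library numbered 2 was the highest. The 3 WT libraries had 121, 128 and 130 CPM and the 3 KO libraries 134, 122 and 132 CPM. Maff, the remaining small Maf gene, had 62.2 CPM in library 2 of P2- and 29.9 CPM in library 2 of P2+, and between 0.524 and 2.87 CPM in the other 10. Fos, an AP-1 gene induced within minutes by stress of many kinds, had 1326 and 903 CPM in these same libraries, 166 CPM in WT library 3, 87.5 CPM in KO library 3 and at most 22.2 CPM elsewhere. Mafk was not high in WT library 3 or KO library 3. The genes whose log2 CPM most resembled that of Mafk over the 12 libraries, among 9522 genes, were Dnajb4 (Pearson r = 0.965), Spty2d1 (r = 0.963) and Dnajb1 (r = 0.960), of which Dnajb4 and Dnajb1 encode partners of the Hsp70 chaperone. The same libraries carry all of these values, and what set them apart was not tested.

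**Figure D3:**
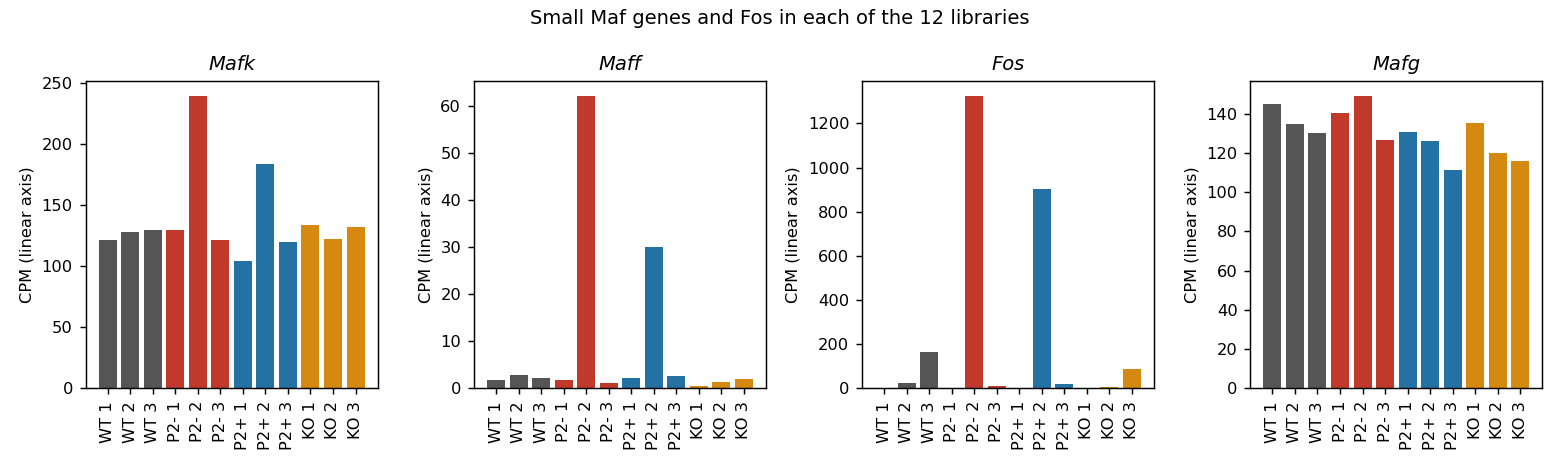
CPM (linear axes from 0, a separate scale for each gene) of the small Maf genes Mafk, Maff and Mafg and of Fos in each of the 12 libraries, coloured by group. Mafk, Maff and Fos are high together in the libraries numbered 2 of P2- and P2+, where Mafk reaches 240 and 184 CPM, and Mafg is not.

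Mafg did not share this pattern, at 140, 149 and 126 CPM in P2-, 131, 126 and 111 CPM in P2+, 145, 135 and 130 CPM in WT and 135, 120 and 116 CPM in KO. Its log2 fold change was -0.16 in P2+ versus P2- (SE 0.09, adjusted p = 0.201) and -0.15 in KO versus WT (SE 0.07, adjusted p = 0.198), and the groups overlapped in both. For Mafk the same values were -0.26 (SE 0.28, adjusted p = 0.516) and 0.02 (SE 0.07, adjusted p = 0.869). Without library 2 of P2- alone, which leaves the high library 2 of P2+ in, Mafk in P2+ versus P2- was at 0.13, and without both libraries numbered 2 at -0.14 (SE 0.10, adjusted p = 0.281). Exons of Mafg share 124 bases with Sirt7 on the same strand, and those of Mafk 169 bases with Tmem184a on the opposite strand. Whether reads in these bases were counted or left out depends on counting settings that are not given here.

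With the libraries of P2+ and P2- paired by their number, 5 of the 8 genes passed the threshold, where 50.7% of all genes tested were called. Besides Nfe2l2 (log2 fold change -1.33, SE 0.05, adjusted p = 2.97e-10) these were Mafk at -0.23 (SE 0.07, adjusted p = 0.0160), Mafg at -0.16 (SE 0.06, adjusted p = 0.0371), Bach1 at 0.16 (SE 0.06, adjusted p = 0.0403) and Maf at 1.88 (SE 0.72, adjusted p = 0.0438). The difference of P2+ from P2- within pairs was -0.32, -0.39 and -0.02 for Mafk and -0.10, -0.24 and -0.18 for Mafg on the log2 scale. For Bach1 it was 0.10, 0.28 and 0.05, so the widest of the 3 was in the pair numbered 2 for Mafk, Mafg and Bach1. For Maf it was 3.315, 0.61 and 1.62, with the narrowest in that pair. Without both libraries numbered 2 and still paired, an alternative chosen after seeing the data, only Nfe2l2 was called (-1.34, adjusted p = 2.58e-12). Mafk was then at -0.14 (adjusted p = 0.185), Mafg at -0.12 (adjusted p = 0.237) and Bach1 at 0.10 (adjusted p = 0.251), Maf fell under the filter, and 5445 of 12271 genes were called. Nfe2, Nfe2l1 and Bach2 were called in neither.

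Bach1, the heme-regulated repressor of Nrf2 targets, lay between 190 and 236 CPM over all libraries. It was 225, 236 and 212 CPM in P2+ and 209, 195 and 205 CPM in P2-, which did not overlap, but the unpaired test did not call the difference (0.16 on the log2 scale, SE 0.07, 95% interval -0.01 to 0.32, adjusted p = 0.124). WT had 207, 208 and 190 CPM and KO 206, 215 and 225 CPM, with a log2 fold change of 0.09 in KO versus WT (95% interval -0.05 to 0.22, adjusted p = 0.431). Bach2 was lower, at 25.5, 29.7 and 31.3 CPM in WT, 29.6, 22.9 and 25.8 in P2-, 41.5, 19.6 and 21.5 in P2+ and 28.5, 35.9 and 30.8 in KO. Its spread in P2+ came from library 1, the highest of all 12, while the other P2+ libraries were the lowest. In P2+ library 1 the 8 B cell markers summed to 53.9 CPM against 28.8 and 28.1 CPM in the other 2, and the 8 neutrophil and monocyte markers to 303 CPM against 128 and 155 CPM, and the part of such cells in the Bach2 value was not tested. With all libraries Bach2 was at 0.20 on the log2 scale in KO versus P2+ (SE 0.24, adjusted p = 0.567), and without P2+ library 1 at 0.61 (SE 0.15, adjusted p = 0.0106), which passed the threshold. Exons of Bach2 overlap the antisense gene Bach2os over 537 bases.

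Maf was close to the detection limit. It had 15, 16 and 18 counts in WT, 0, 14 and 2 in P2-, 17, 31 and 10 in P2+ and 5, 1 and 7 in KO. Every KO library was under every WT library, but the fold change of -1.67 on the log2 scale (SE 0.61, 95% interval -2.95 to -0.39) did not pass the threshold (adjusted p = 0.0776), though it did with the edgeR exact test (adjusted p = 0.0143). In P2- the 14 counts of library 2 decided the value. In P2- versus WT Maf was at -1.42 (adjusted p = 0.307) with that library and at -3.89 (SE 0.87, adjusted p = 0.00771) without it. Of the 8 macrophage markers, the sum was 9.51 CPM in that library against 2.55 and 4.45 CPM in the other 2 of P2-, and their part in the Maf counts was not tested. Exons of Maf overlap the antisense gene Gm15655 over 440 bases. Of the relatives outside the set, Nfe2l3 and Nrl were at 0 counts in all libraries.

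Per length of exon, in RPKM (CPM divided by exonic length), Nfe2 led in WT at 164 ± 14.1 (SD, n = 3), followed by Nfe2l2 at 65.5 ± 3.27 and Nfe2l1 at 43.0 ± 2.0. Bach1 at 32.6 ± 1.64 and Mafk at 32.4 ± 1.12 did not differ beyond their spread, Mafg had 24.3 ± 1.36, and Bach2 with 2.90 ± 0.30 and Maf with 0.15 ± 0.02 came last. Nfe2l2 stayed in the second place in P2- at 93.2 ± 12.5 and in KO at 93.0 ± 3.35. In P2+ it had 36.7 ± 3.72, under Nfe2l1 at 44.2 ± 2.07 and within the spread of Bach1 at 36.3 ± 1.96. Of the summed RPKM of the 3 CNC and 2 Bach genes, Nfe2l2 made up between 28.2% and 30.6% in P2-, between 27.3% and 29.1% in KO, between 20.4% and 22.9% in WT and between 12.6% and 14.8% in P2+.

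**Figure D4:**
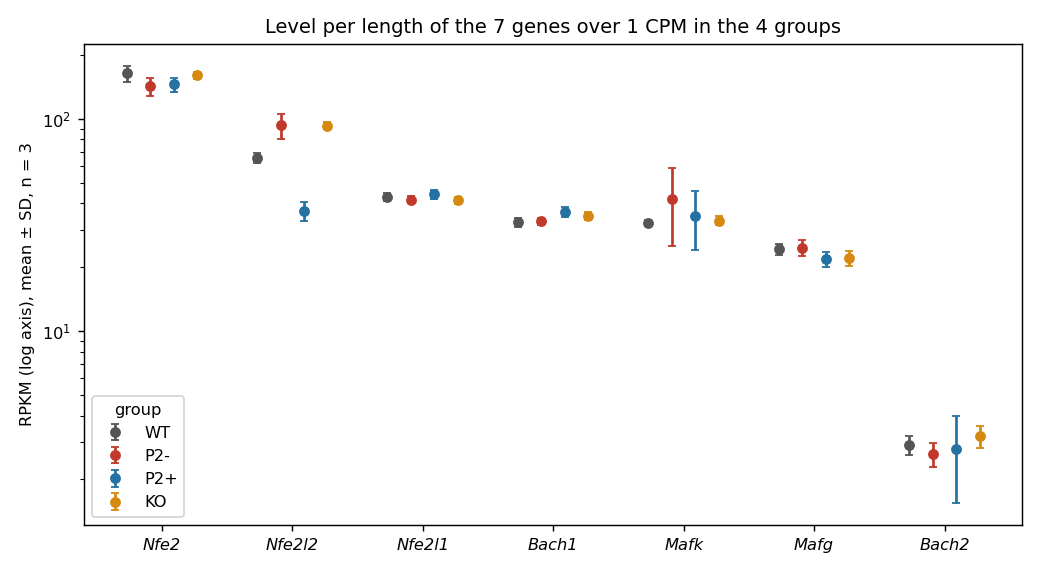
Mean ± SD (n = 3) of the RPKM (log axis) of 7 of the genes in the 4 groups, leaving out Maf, which was at or under 0.18 on average in each group. Nfe2 leads in every group, and Nfe2l2 ranges from 36.7 in P2+ to 93.2 in P2- while Nfe2l1 stays between 41.3 and 44.2.

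The ratio of Nfe2l2 to Bach1 per length, an activator and a repressor of the same sites, was 3.04, 2.50 and 2.95 in P2- and 2.72, 2.64 and 2.65 in KO. It was 1.85, 2.02 and 2.17 in WT and 1.06, 0.847 and 1.14 in P2+. Only P2- and KO overlapped. The means were 1.01 in P2+ and 2.83 in P2-, a difference of -1.81 (exact permutation test, two-sided, p = 0.1, 0.12 adjusted over the 6 comparisons of this ratio), and 2.67 in KO and 2.01 in WT, a difference of 0.66 (p = 0.1, adjusted 0.12, exact). A p of 0.1 is the smallest that 3 against 3 libraries can give. The RPKM of the 3 CNC and 2 Bach genes together was between 5.11 and 6.26 times that of the 3 small Maf genes in 10 libraries, and 2.50 and 3.17 times in the libraries numbered 2 of P2- and P2+.

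Over the 12 libraries the genes with the pattern most like that of Nfe2l2, by Pearson r of log2 CPM, were Spire1 (0.992), Cyth3 (0.991) and Rnf145 (0.991). For Nfe2 the closest gene was Fbxo46 (0.919), for Nfe2l1 Ttc28 (0.895), for Bach1 Lmbrd2 (0.890), for Mafg Gm1815 (0.945), for Bach2 Sin3a (0.830) and for Maf Thap4 (0.911). The libraries share groups, depth and pairs, so these coefficients are descriptions of the 12 libraries.

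Of 28 genes known as targets of Nrf2 and Bach1, 24 were tested in P2+ versus P2-, and 11 were lower (45.8%, against 17.0% of all genes tested), 4 were higher (16.7%, against 20.1%) and 9 did not pass the threshold. Their median log2 fold change was -0.21 against -0.02 over all genes tested. In the same comparison 7 of 8 erythroid markers were lower, with a median of -2.65, and 9 of 9 tested megakaryocyte markers were higher, with a median of 3.03, and their part in the values of this list was not tested. Slc40a1, which exports iron from cells, fell by 4.21 on the log2 scale (SE 0.18, adjusted p = 2.01e-06), from 140, 93.8 and 134 CPM in P2- to 6.62, 7.25 and 5.72 CPM in P2+. Blvrb, the biliverdin reductase of heme breakdown in red cells, fell by 2.46 (SE 0.14, adjusted p = 5.37e-06). Abcc1, an exporter of glutathione conjugates, rose by 0.76 (SE 0.09, adjusted p = 2.62e-04), and Srxn1, which restores oxidised peroxiredoxins, by 0.50 (SE 0.17, adjusted p = 0.0428). With the libraries paired 12 of 24 were lower and 5 higher, where 24.8% and 25.9% of all genes were. Without both libraries numbered 2 and unpaired, of 22 tested 10 were lower and 4 higher, where 16.8% and 20.3% of all genes were. With any single library left out 2 or 3 were higher, where between 15.8% and 19.0% of all genes were.

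Nqo1, Gclm, Hmox1, Txnrd1 and Gclc, named here after their values were seen because they are textbook targets, differed among themselves. Nqo1, a quinone reductase, followed the order of Nfe2l2 with 38.5, 36.6 and 32.4 CPM in P2-, 36.9, 36.4 and 40.6 in KO, 27.5, 27.3 and 24.0 in WT and 12.4, 15.6 and 10.6 in P2+. Its log2 fold change was -1.46 in P2+ versus P2- (SE 0.16, adjusted p = 1.76e-04) and 0.52 in KO versus WT (SE 0.11, adjusted p = 0.0025). Gclm, a subunit of the enzyme that starts glutathione synthesis, fell by 0.97 in P2+ versus P2- (SE 0.08, adjusted p = 3.27e-05) and was at 0.11 in KO versus WT (SE 0.07, adjusted p = 0.283). Hmox1, the heme oxygenase that Bach1 represses, was low, at 4.67 CPM on average in WT and 1.5 CPM in KO, where it fell by 1.64 (SE 0.33, adjusted p = 0.00236). In P2+ versus P2- it was at 1.23 (SE 0.67, adjusted p = 0.182). Txnrd1 went the other way from Nfe2l2. It rose by 0.44 in P2+ versus P2- (SE 0.08, adjusted p = 0.00263) and fell by 0.35 in KO versus WT (SE 0.06, adjusted p = 7.88e-04). Gclc was called in neither, at -0.18 (SE 0.08, adjusted p = 0.110) and 0.09 (SE 0.07, adjusted p = 0.486).

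In KO versus WT the target list was split evenly. Of 22 genes tested 4 were higher and 4 lower (18.2% each, against 6.18% and 8.76% of all genes tested) and 14 did not pass, with a median of 0.01. Slc40a1 rose by 1.26 (SE 0.09, adjusted p = 6.45e-08), to 116, 142 and 133 CPM from 49.6, 61.7 and 50.7 CPM, and Blvrb rose by 0.53 (SE 0.12, adjusted p = 0.00576). Gstm1, a glutathione transferase, fell by 0.55 (SE 0.17, adjusted p = 0.0347) and Abcc1 by 0.53 (SE 0.07, adjusted p = 2.46e-05). None of 22 tested was called in KO versus P2- by the edgeR quasi-likelihood test, where 1.61% of all genes were called, or the exact test (2.85%), and 1 was by DESeq2 (3.89%), with 4 at an unadjusted p under 0.05. With so few calls over all genes, this count says nothing particular about the list. Slc40a1 and Blvrb are also genes of erythroid maturation, and the part of the erythroid markers that moved with them was not tested.

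**Figure D5:**
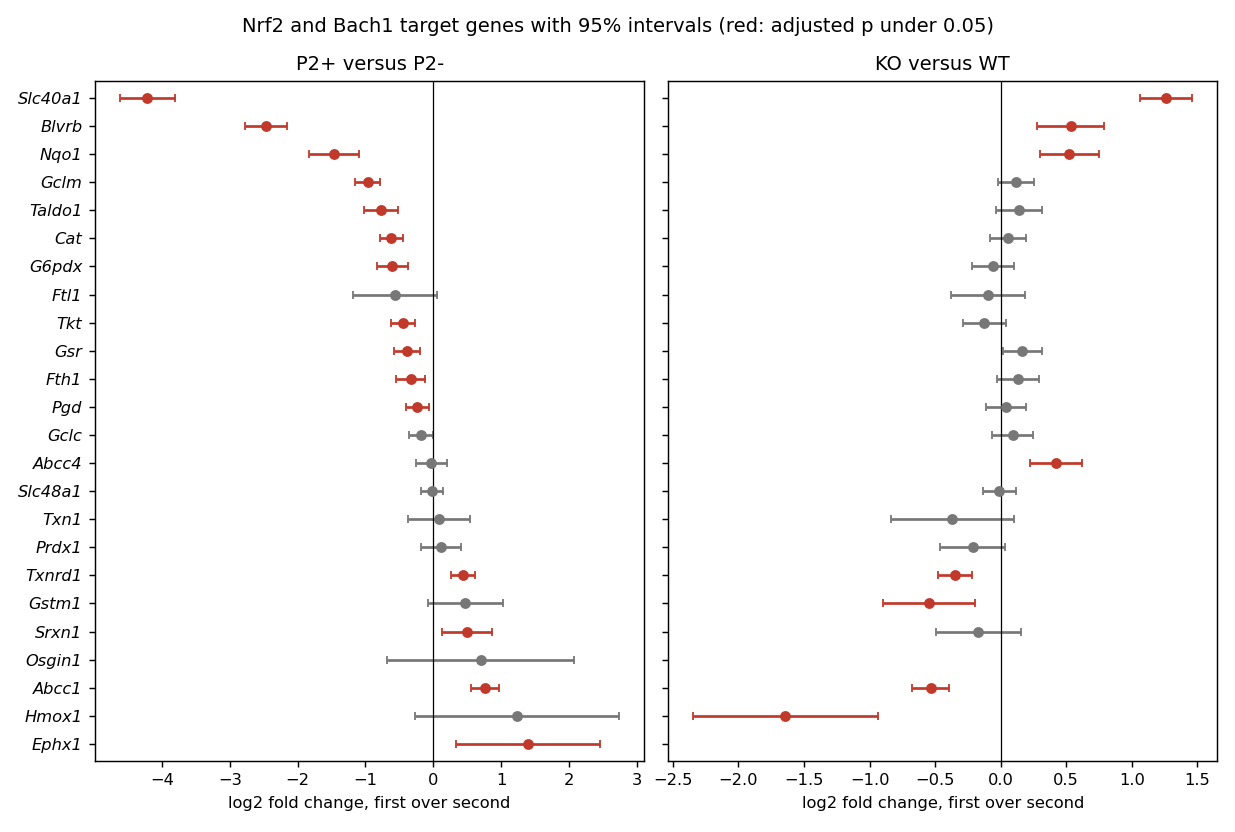
Log2 fold change (horizontal axes, with different scales) with its 95% interval of the genes known as targets of Nrf2 and Bach1, in P2+ versus P2- (left) and KO versus WT (right), in red where the adjusted p was under 0.05. Slc40a1, Blvrb and Nqo1 lie left of 0 in the first and right of 0 in the second, and most of the genes between them and 0 on the left are not called on the right.

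Nfe2 itself was called in no comparison. Of 7 tested megakaryocyte targets of NF-E2, 6 were higher in P2+ than in P2- (85.7%, against 20.1% of all genes tested) and none lower, with a median log2 fold change of 2.39. The 1 not called, named after its value was seen, was Tubb1 at 0.19 (SE 0.31, adjusted p = 0.676). In KO versus P2+ Tubb1 was higher by 0.71 (SE 0.21, adjusted p = 0.0229), while the other 6 were lower. Selp, the P-selectin of platelet granules, rose by 3.27 (SE 0.44, adjusted p = 5.11e-04). In KO versus WT 5 of 7 were lower (71.4%, against 8.76%) and none higher, with a median of -0.79, and Selp fell by 1.63 (SE 0.27, adjusted p = 3.40e-04) and Tbxas1, the thromboxane synthase, by 0.86 (SE 0.15, adjusted p = 4.74e-04). Of 7 tested erythroid targets 5 were lower in P2+ than in P2- (71.4%, against 17.0%) and none higher, with a median of -0.62. The 2 not called, also named after their values were seen, were the globin genes Hbb-bs at 0.08 (SE 0.65, adjusted p = 0.933) and Hbb-bt at 0.94 (SE 0.75, adjusted p = 0.365). Slc11a2, an iron importer, fell by 1.41 (SE 0.11, adjusted p = 2.23e-05) and Alad, of heme synthesis, by 1.21 (SE 0.20, adjusted p = 0.00162). In KO versus WT 2 of 8 were higher (25.0%, against 6.18%), among them Slc11a2 by 0.72 (SE 0.09, adjusted p = 1.46e-05). Only 1 was when a single library of WT 1, WT 3 or any KO library was left out, where between 3.64% and 5.61% of all genes were. Without both libraries numbered 2, 6 of 7 megakaryocyte targets were higher and 5 of 6 erythroid targets lower in P2+, where 20.3% and 16.8% of all genes were. The megakaryocyte and erythroid marker sums moved with both lists and their part was not tested.

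Of the proteasome subunits, which Nrf1 controls, 6 of 33 were lower in P2+ versus P2- (18.2%, a share near the 17.0% of all genes tested) and none higher, against 20.1%, with a median of -0.21. Adrm1, a ubiquitin receptor of the proteasome, fell by 0.84 (SE 0.29, adjusted p = 0.0461) and Psmd7 by 0.65 (SE 0.08, adjusted p = 3.96e-04). With the libraries paired 11 of 33 were lower, where 24.8% of all genes were. Without both numbered 2 and unpaired 6 were (16.8% of all genes), while leaving out a single library gave between 3 and 6 (between 12.6% and 15.8% of all genes). In KO versus WT 2 of 33 were higher (6.06%, against 6.18%), Psmd11 and Psmd3, with a median of 0.04. Neither a rise nor a fall was called without WT library 1, WT library 2 or KO library 2. Those fits called 12.9%, 11.6% and 11.2% of all genes, higher and lower together. Of the 11 genes of Keap1 and of Nrf1 processing 2 were higher (18.2%, against 20.1%) and 4 lower (36.4%, against 17.0%) in P2+ versus P2-. Rbx1 (0.44, SE 0.10) and Cul3 (0.20, SE 0.07), which form the Keap1 ubiquitin ligase, rose. Syvn1, the ligase that degrades Nrf1 (-0.64, SE 0.17), Sqstm1, which sequesters Keap1 (-0.58, SE 0.12), the Nrf1 protease Ddi2 (-0.39, SE 0.10) and Vcp (-0.35, SE 0.07) fell. With the libraries paired 3 of the 11 rose and 5 fell, where 25.9% of all genes were higher and 24.8% lower. A single gene rose when any 1 library other than P2- library 1 was left out, where between 15.8% and 19.0% of all genes did. Keap1 itself was at -0.19 (SE 0.07, adjusted p = 0.0588), and between 155 and 199 CPM over all libraries. The erythroid and megakaryocyte markers moved in the same comparison as the proteasome and processing genes, and their part was not tested. In KO versus WT Syvn1 rose by 0.40 (SE 0.10, adjusted p = 0.00811) and Ddi2 by 0.27 (SE 0.07, adjusted p = 0.0136), and the other 9 were not called. Neither passed in 1 fit of all 12 libraries, and Syvn1 alone did without WT library 1, KO library 1 or KO library 2.

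Of 11 tested Bach2 and lymphoid genes 4 were higher (36.4%, against 20.1% of all genes tested) and 2 lower (18.2%, against 17.0%) in P2+ versus P2-. The B cell markers moved with them, with 4 of 5 tested higher, a median log2 fold change of 1.34 and sums between 10.7 and 13.7 CPM in P2- and 28.1 and 53.9 CPM in P2+, and their part was not tested. Foxo1 rose by 0.48 (SE 0.10, adjusted p = 0.0059), and Ikzf1, the Ikaros gene, fell by 0.75 (SE 0.08, adjusted p = 1.15e-04). With the libraries paired 7 of 11 were higher, where 25.9% of all genes were, and without both libraries numbered 2 and unpaired 6 of 8 were, where 20.3% of all genes were. In KO versus WT 1 of 11 was lower (9.09%, against 8.76%), and 3 were with the edgeR exact test (9.41% of all genes) and none was without WT library 3 (7.46% of all genes). Of the AP-1 and immediate early genes none of 10 tested was called in P2+ versus P2- by the edgeR quasi-likelihood test, the exact test or DESeq2, with 1 at an unadjusted p under 0.05 in the first. These tests called 37.1%, 33.1% and 38.3% of all genes. With the libraries paired 5 of 10 were higher and 3 lower, where 50.7% of all genes were called, and without library 2 of P2- alone 3 were higher, where 19.0% of all genes were. Egr1 alone of 11 was called in KO versus WT (9.09% lower, against 8.76% of all genes) and fell by 1.33 (SE 0.30, adjusted p = 0.00593). None was called by DESeq2, where 8.66% of all genes were lower, while 4 of 11 were lower without WT library 1, where 7.30% of all genes were. None of the lists was tested as a set.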

How the data were processed

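RNA-Seq libraries of PreMegEs were made from 50 ng of total RNA with 16 cycles of amplification in a strand-specific poly(A) kit. Bowtie2 was used by the authors for alignment to GRCm38 and featureCounts for assignment to Ensembl genes, and raw counts were deposited. Whether the counting used strand is not given in the sources used here, nor whether the KO libraries were sequenced with the others. Each column matched the title of 1 sample.

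From the counts, edgeR 4.0.16 (R 4.3.3) was used with TMM scaling. For each comparison of 3 against 3 libraries, genes at 1 CPM or above in 3 or more libraries were fitted with the quasi-likelihood F-test (group only), and p-values were adjusted over all genes tested (Benjamini-Hochberg). A gene was called at an adjusted p under 0.05. The script was tested on simulated counts with 200 changed genes. RPKM used exonic lengths of GENCODE vM21. Replicates differed by more than counting error (chi-square per degree of freedom between 4.49 and 32.8). P-values measure the spread between libraries, each from 1 pool of mice, so the sort and the library preparation are part of it. In P2+ versus P2- the main test leaves out the pairing described next, and the paired test measures the spread of differences within pairs.

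Deviations of same-numbered P2+ and P2- libraries from their group means correlated at between 0.386 and 0.572 over 13272 genes, so the numbers pair these libraries. In the other 5 comparisons the correlations were between -0.085 and 0.159, and the libraries there share a number only.

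The genes and lists were chosen with earlier results of these data known. All 8 genes, their relatives and the Keap1 and Nrf1 processing genes could be named. Of the other lists, the 2 most raised and 2 most lowered called genes per comparison were named, given 10 CPM or more in 1 of the groups. Some genes that these rules name are not reported here. For likeness, up to 3 genes with the highest Pearson r over the 12 libraries were named, among genes of at least 10 CPM on average. Alternatives were the edgeR exact test, DESeq2 1.42.0, other size factors, no filter, 1 fit of all 12 libraries, a block for the number, and leaving out libraries.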

Additional observations from a re-analysis of the deposited data

How the results depend on the processing

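Nfe2l2 was called in all 14 alternatives of P2+ versus P2- (log2 fold change -1.44 to -1.24) and in all 12 alternatives each of P2+ versus WT (-0.89 to -0.76), P2- versus WT (0.44 to 0.61), KO versus WT (0.45 to 0.53) and KO versus P2+ (1.25 to 1.38), and in none of 12 of KO versus P2-. With the replicate block 5 of the 8 genes were called in P2+ versus P2-, where 50.7% of all genes were, and the block changed no other call of the 8. The exact test called 2 in KO versus WT, where it called 15.7% of all genes. With 1 library left out, Maf was called besides Nfe2l2 in P2- versus WT (without P2- library 2) and Bach2 in KO versus P2+ (without P2+ library 1). The calls over all genes in such fits are given below for P2- versus WT and are not reported here for KO versus P2+.

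Over all genes, KO versus P2- had 359 calls with the exact test, 490 with DESeq2, 465 with no filter and 102 with the replicate block, against 203. With 1 library left out there were between 42 and 409 there, between 1213 and 2447 in P2+ versus WT, between 1068 and 2189 in P2- versus WT and between 1194 and 1648 in KO versus WT. The cause was not tested, beyond fewer libraries in the fit.

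Among differences that were not called, KO versus P2- of Nfe2l2 turned to 4.98e-04 with the block. KO versus P2+ of Mafg turned to 1.27e-04 with DESeq2, 1.31e-06 with other size factors, 0.0077 with no filter and 0.010 in 1 fit of all libraries. With 1 library left out, log2 fold changes ranged in P2+ versus P2- from -0.036 to 0.092 for Nfe2, -0.53 to 0.13 for Mafk and -0.32 to 0.29 for Bach2. In P2+ versus WT they ranged from -0.18 to 0.54 for Maf, -0.18 to 0.27 for Mafk and -0.48 to 0.13 for Bach2. In P2- versus WT they ranged from -0.038 to 0.081 for Mafg, -0.013 to 0.54 for Mafk and -0.030 to 0.035 for Bach1, and in KO versus WT from -0.098 to 0.019 for Nfe2 and -0.0097 to 0.061 for Mafk. In KO versus P2- they ranged from -0.041 to 0.014 for Nfe2l1, -0.11 to 0.069 for Nfe2l2 and -0.52 to 0.037 for Mafk, and in KO versus P2+ from -0.074 to 0.043 for Mafg, -0.25 to 0.19 for Mafk and -0.0027 to 0.61 for Bach2. At these depths Maf, with at most 31 counts in a library, was the gene least resolved.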
